A study of Mus musculus with 25 samples.

Results

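*Foxp1* (ENSMUSG00000030067), which encodes the forkhead transcription factor FOXP1, was followed across spinal cord injury and *Rest* genotype in sorted mouse cortical neurons. It was selected on its own values, since it was the gene that stood out between injured WT libraries at day 3 and WT sham libraries. It is 1 gene of the 9931 with a symbol in these data. FOXP proteins bind DNA as dimers through a forkhead domain and act mostly as repressors, with partners that include CtBP and the NuRD complex. In the forebrain FOXP1 is found in projection neurons of the cortex and of the striatum, and it is needed for normal development of both. It is also made by lymphocytes and myeloid cells, so its RNA is not restricted to neurons.

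The neurons came from the sensorimotor cortex of mice labelled C57BL/6, which carried REST flx/flx alleles and the STOP flx/flx TdTomato reporter in every group and were 4 to 6 weeks old. WT stands for mice given AAV-Syn-GFP and REST cKO for mice given AAV-Syn-Cre, both driven by the human synapsin promoter, so the WT animals also carry the floxed alleles. The virus preceded a crush of the thoracic cord, called SCI, or a sham operation by 4 weeks. About 1000 cells per library were sorted and read with a 3′ mRNA kit, which places reads at the ends of transcripts. The 25 libraries formed 8 groups. For WT there were 4 sham libraries and 3 at each recovery time, which was day 1, 3 or 7. For REST cKO there were 3 sham libraries, then 2 from day 1, 4 from day 3 and 3 from day 7. The study's legend gives 3 mice per condition, while the groups here hold 2 to 4 libraries. The labels number the libraries but do not say whether each came from a separate animal, so the errors here measure the spread between libraries. All 3 WT libraries at day 7 are labelled female, while the 3 REST cKO sham and the 3 REST cKO day 7 libraries are labelled male, so sex and group cannot be told apart there. Levels are given as the deposited log10 of normalized counts, and a difference of 1 is therefore a 10-fold difference.

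*Rest*, the deleted gene, was read first. In WT sham libraries its log10 level was -0.55, -0.26, -0.39 and -1.55. It was -1.35, 0.71 and 0.27 in WT at day 1, then 1.64, 2.88 and 0.56 at day 3, and 0.26, 2.30 and 2.74 at day 7. The REST cKO sham libraries had -2.65, -0.79 and -0.52, those of day 1 had -0.43 and -0.40, those of day 3 had -0.04, -0.31, -0.24 and -1.61, and those of day 7 had -1.21, -0.33 and -0.97. Thus 8 of 13 WT libraries and 0 of 12 REST cKO libraries lay above 0, and 8 of 9 injured WT libraries were above the highest REST cKO library. Sham libraries of both genotypes overlapped. A 3′ read may lie outside the deleted part, and the floxed exon is not given in the sources used here, so this is a limited check of the labels. The values of *Rest* also differ from most others in one respect. By the paper's methods, a linear model took sequencing and alignment covariates out of the values before network analysis. In 9791 genes the correlation left here with either of 2 components of the sequencing metrics was at most 3.94e-10. *Rest* is 1 of 140 genes over 1e-05, with r = 0.326 and -0.162. The reason was not tested. *Foxp1* is not among those genes (r = 3.26e-11 and -1.23e-11).

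The labelled cell type was set against marker genes. All 10 pan-neuronal markers were measured, and their summed level ranged from 1.75 to 4.02 with a median of 3.32. All 12 markers of microglia and macrophages were measured too, and their sum was higher, from 3.84 to 4.60 with a median of 4.29. The most abundant pan-neuronal marker was *Syt1*, a calcium sensor of synaptic vesicles (mean 2.78). The sum of 7 lymphocyte markers was between 4.03 and 5.16, led by the immunoglobulin light chain *Igkc* (mean 4.41). The libraries therefore held neuronal RNA together with abundant RNA of microglia and immunoglobulin genes. Of 9 markers of corticospinal layer 5 neurons, 5 were measured, and *Fezf2*, *Crym*, *Ldb2* and *Nefh* were not analysed here. In bulk samples such as these, fewer cells of a type and less RNA per cell cannot be told apart.

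One library stood apart. In WT day 3 replicate 5, 29.5% of genes lay under -2, against 2.77% to 17% in the other 24 libraries. In batch 1, where single reads could still be read from low values, 1 read was worth 2.53 normalized counts in this library and 0.157 to 0.519 in the 9 others, which makes it the shallowest of them. Depth was not recovered for batches 2 and 3. Fitted differences that use WT day 3 are given with and without it.

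**Figure D1:**
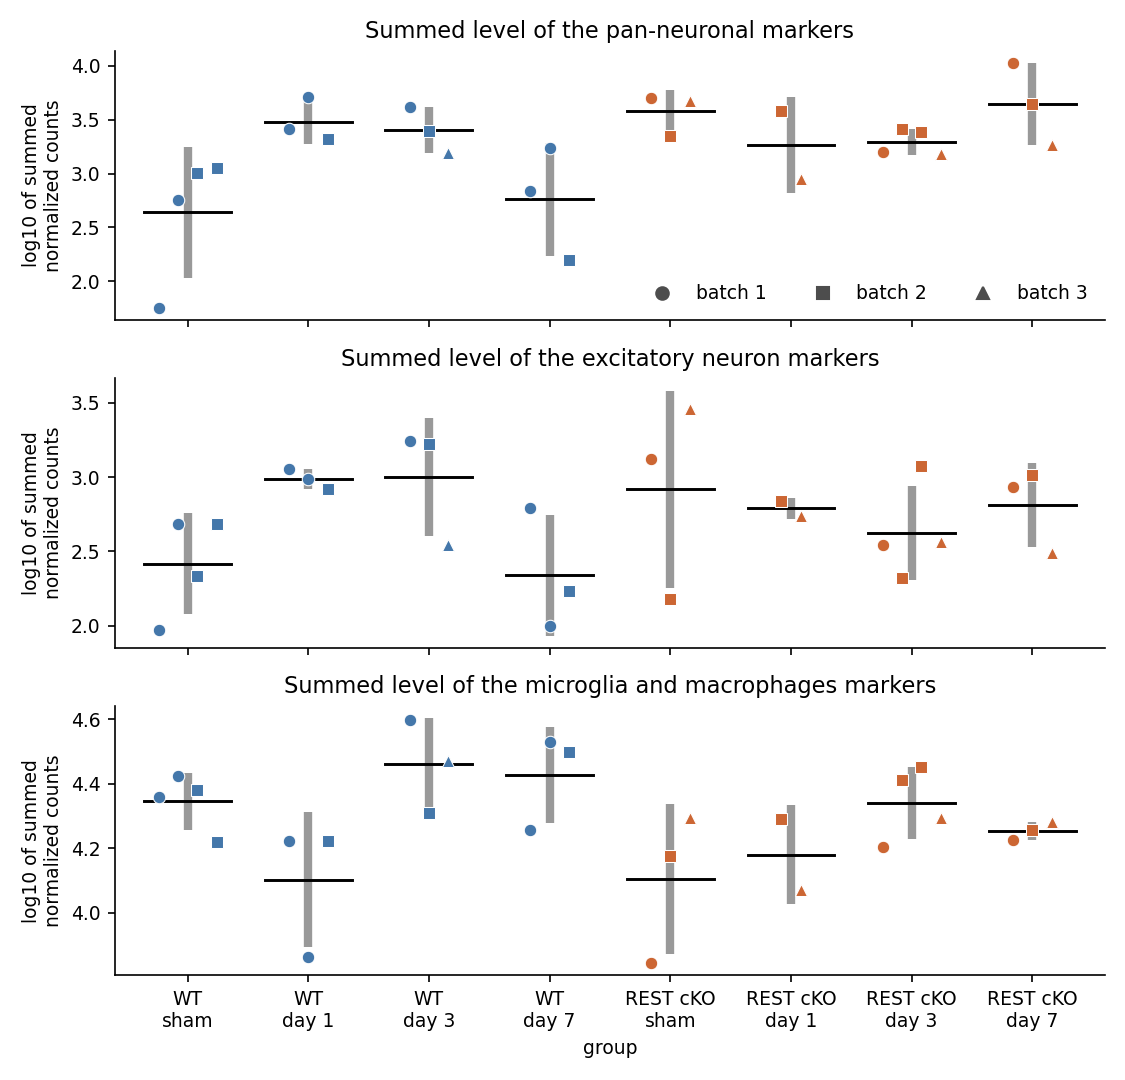
Summed level of 3 marker lists (vertical axes, log10 of summed normalized counts) in each library of the 8 groups (horizontal axis). Points are libraries with batch as shape, black lines are group means and grey bars span 1 SD to each side. The sum for microglia and macrophages stays between 3.84 and 4.60, and the pan-neuronal sum runs from 1.75 to 4.02.

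*Foxp1* lies on the minus strand of chromosome 6 (chr6:98925338-99522721, GRCm38) and spans 597 kb. GENCODE lists 31 transcripts for it, 20 of them protein coding, with 22 different 3′ ends, so reads of different ends were summed into 1 value. Of 4 annotated genes that overlap it, 0 were measured and 0 lie on the opposite strand. On the scale of normalized counts, not per length, its mean over the 25 libraries was 2.40, above the mean of 95% of genes. Its percentile within a library ranged from 67.7 to 99.3 with a median of 91.3, and it was above the 90th percentile in 13 libraries. The libraries ranged from 1.45 to 3.70, a 180-fold span. Its SD within groups was 0.45 (17 residual degrees of freedom), close to the median of 0.43 over the 543 genes whose mean was within 0.25 of its own. Differences between groups made up 58.7% of its variation, where the median over all genes was 30.1%. This share includes the groups on which it was selected.

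In WT sham libraries the log10 level of *Foxp1* was 1.76, 1.72, 1.45 and 2.61. At day 1 it was 1.84, 1.88 and 1.94. At day 3 it was 3.70, 3.27 and 2.74, and at day 7 it was 2.82, 2.58 and 2.02. WT day 3 held the highest value of all libraries, and its lowest library was above all 4 WT sham libraries and all 3 of day 1. The day 7 libraries overlapped both sham and day 3. Replicate 17 was the high library of WT sham and was the one that came close to the day 3 values.

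In REST cKO sham libraries the level was 2.51, 1.68 and 2.07. At day 1 it was 3.23 and 2.04, at day 3 it was 1.83, 2.43, 2.37 and 3.08, and at day 7 it was 2.84, 2.73 and 2.83. The day 7 libraries lay close together and all 3 were above the sham libraries. At day 1 the 2 libraries were 1 high and 1 low, and the day 3 libraries spread over the sham values and above them.

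The group means, from the highest, were 3.23 ± 0.48 (SD, n = 3) in WT day 3, 2.80 ± 0.06 (n = 3) in REST cKO day 7, 2.63 ± 0.84 (n = 2) in REST cKO day 1 and 2.47 ± 0.41 (n = 3) in WT day 7. They went on with 2.43 ± 0.51 (n = 4) in REST cKO day 3, 2.09 ± 0.41 (n = 3) in REST cKO sham, 1.88 ± 0.05 (n = 3) in WT day 1 and 1.88 ± 0.50 (n = 4) in WT sham. Every neighbouring pair in this order overlapped. The step between the first and second was 0.43, within the larger SD of that pair (0.48), and each later step was smaller than 0.43 and within its pair's larger SD.

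**Figure D2:**
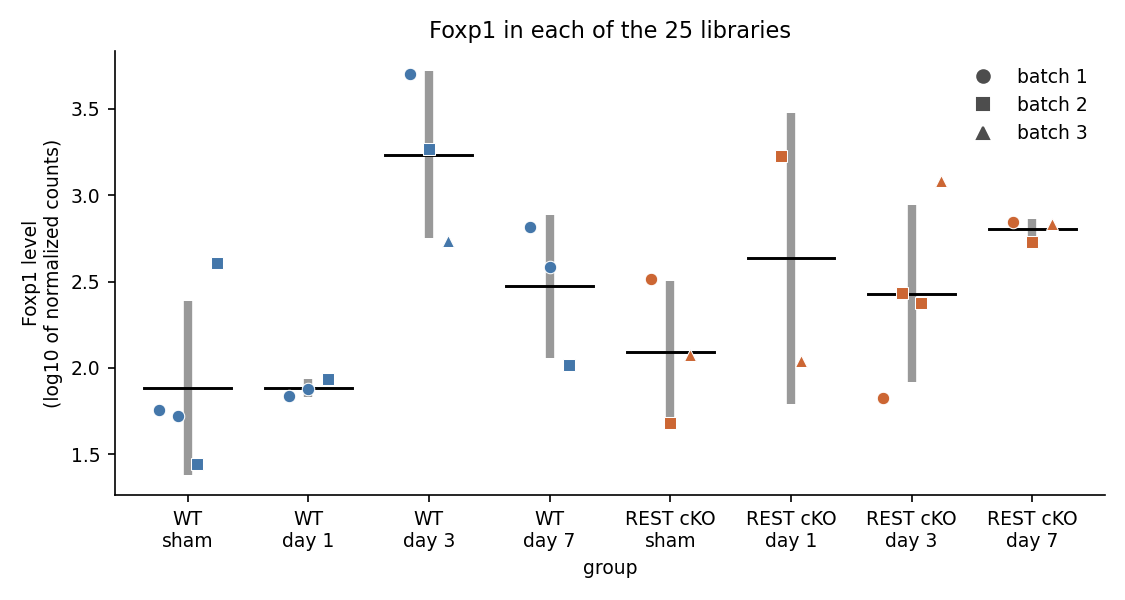
*Foxp1* level (vertical axis, log10 of normalized counts) in each library of the 8 groups (horizontal axis). Points are libraries with batch as shape, black lines are group means and grey bars span 1 SD to each side. WT day 3 has the highest mean (3.23), and WT day 1 and WT sham the lowest (both 1.88).

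Differences between groups were fitted with limma over all genes, with the 8 group means and the 2 components in the model. An adjusted p (Benjamini-Hochberg over 9931 genes) under 0.1 counted as a call. The deposited *Foxp1* values are uncorrelated with the components, while the groups are not, so a fitted difference and a difference of group means need not be equal. Both are given. *Foxp1* was called in 0 of the 7 tested comparisons, none of which sets WT sham or WT day 3 against another group. The libraries of those 2 groups still entered the fit, through the slopes of the components and the residual variance.

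Within REST cKO, injury was compared with sham. The REST cKO libraries played no part in the selection. Their fitted differences, standard errors and p-values still drew on the selecting WT libraries, through the component slopes and residual variance. The differences of means, and the permutation test below, did not use that fit. They are still not free of those libraries. The deposited *Foxp1* values were uncorrelated with the components over all 25 libraries, so they are taken as adjusted over all of them. At day 1 the fitted difference of *Foxp1* was 0.42 (standard error 0.36, limma adjusted p = 0.955) and the difference of means 0.54, with 1 of 2 libraries above the mean of sham, and it was -0.0317 without that library (replicate 19). At day 3 it was -0.14 (standard error 0.33, limma adjusted p = 0.999), although the difference of means was 0.34 and 3 of 4 libraries were above the sham mean. The sign at day 3 thus depended on whether the components were in the model, and it was also positive (0.0491) without day 3 replicate 9. At day 7 it was 0.28 (standard error 0.35, 95% interval -0.44 to 0.99, limma adjusted p = 0.965), with 3 of 3 libraries above every sham library. The difference of means was 0.71, and without day 7 replicate 13 the fitted value was -0.00673. In that comparison 5.89% of all genes were separated in this direction, so the lack of overlap is shared by 585 genes.

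Over the 3 days together the fitted difference from REST cKO sham was 0.19 (standard error 0.28, 95% interval -0.40 to 0.77, limma adjusted p = 0.977), and the difference of means was 0.53. Leaving out 1 library moved the fitted value between 0.06 and 0.38, and the alternative settings between 0.01 and 0.53. Pooling the 9 injured libraries gave 2.60 ± 0.47 against 2.09 ± 0.41 in the 3 sham libraries, a difference of 0.51. An exact two-sided permutation test gave p = 0.136 over 220 regroupings, of which the smallest possible p is 0.00455, and 7 of 9 injured libraries were above the mean of sham. The study used RUV to remove batch effects. The deposited values are taken here as adjusted, so a difference within a batch is one of adjusted values. Within batches, the difference was -0.18 in batch 1, 1.01 in batch 2 and 0.58 in batch 3, each against 1 sham library. At day 3 alone it was -0.68, 0.72 and 1.01, and at day 7 it was 0.33, 1.05 and 0.76. Day 7 was the time at which all 3 batches gave the same sign, while at day 1 batch 2 gave 1.54 and batch 3 gave -0.03.

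Across all genes, these comparisons held few calls in the main fit. The counts moved with the settings, which gave 0 to 16 over all days. At day 3 leaving out 1 library gave 0 to 12. The main counts follow. At day 1 after SCI 0 genes passed (0%), with 525 at an unadjusted p under 0.05 in limma. At day 3 there were 2 (0.0201%), *N4bp2l2* and the pseudogene *Rpl3-ps1*, and at day 7 there were 0 (0%) with 563 unadjusted. Over all days 1 gene passed (0.0101%), again *N4bp2l2*, with a fitted difference of 3.66. These 2 genes were named after their values were seen, and *N4bp2l2* had a correlation of -0.49 with *Foxp1* within groups.

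REST cKO was set against WT at the same day to ask how deletion of *Rest* altered the level of *Foxp1* after injury. At day 1 the fitted difference was 1.38 (standard error 0.41, 95% interval 0.54 to 2.21), a 23.8-fold higher level in REST cKO, and the difference of means was 0.75. Both REST cKO libraries were above all 3 WT libraries, a separation that 12.9% of genes showed with these group sizes. *Foxp1* was among the genes with an unadjusted p under 0.05, yet its limma adjusted p was 0.999. The fitted difference fell to 0.86 without REST cKO day 1 replicate 19, which left 1 library in that group, assumed to vary like the other groups. Batch 2 held 1 library of each group and gave 1.29. Batches 1 and 3 each held libraries of 1 of these groups.

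At day 7 REST cKO was above WT by 0.20 in the fit (standard error 0.32, 95% interval -0.47 to 0.87, limma adjusted p = 0.897). All 3 REST cKO libraries were above the mean of WT, and 2 of them were above its highest library. The difference of means was 0.33, and without REST cKO day 7 replicate 13 the fitted value was -0.0362. Within batches the difference was 0.14 in batch 1 and 0.72 in batch 2. Among all genes 0 passed at day 1 (0%) and 0 at day 7 (0%), with 378 and 988 at an unadjusted p under 0.05 in limma. The paper, using limma voom and the same threshold, reports many genes changed by *Rest* deletion at day 7. The input and model here differ from the paper's, and the reason for the unlike counts was not tested.

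In WT, day 7 was compared with day 1, since neither group took part in the selection. The fit also used the groups that did. The fitted difference of *Foxp1* was 1.03 (standard error 0.36, 95% interval 0.29 to 1.77, limma adjusted p = 0.456), and the difference of means was 0.59. All 3 day 7 libraries were above the 3 of day 1, as in 3.93% of genes. The unadjusted p of *Foxp1* was under 0.05, as in 834 genes, and 0 genes passed (0%) in limma. The difference was 0.84 in batch 1 and 0.08 in batch 2, so it was small in the batch that held 1 library of each. The 3 day 7 libraries are labelled female and the day 1 libraries hold 1 male and 2 females by their labels.

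The comparisons that share libraries with the selection are given as descriptions, without a test. From WT sham to WT day 3 the fitted difference of *Foxp1* was 1.86 (standard error 0.34), a 72.4-fold difference, and the means differed by 1.35, or 22.5-fold. Without replicate 5, the shallow library, the fitted value was 1.60. All 3 day 3 libraries were above all 4 sham libraries, as in 3.98% of genes, and nothing is read from the count under the adjusted threshold there, which was 1 gene (0.0101%), the one selected, and 0 in 5 of 6 alternative settings. Within batch 1 the difference was 1.96 and within batch 2 it was 1.24, while batch 3 held no WT sham library. Against WT sham the fitted value at day 1 was -0.18 (standard error 0.32), with a difference of means of 0.00122, and 0.12 in batch 1 and -0.09 in batch 2. At day 7 it was 0.85 (standard error 0.31), with 0.59 for the means, and 0.96 in batch 1 but -0.01 in batch 2. Batches also differed between genotypes in sham, where the fitted value was 0.78 (standard error 0.35), that of the means 0.21, and the difference 0.77 in batch 1 but -0.34 in batch 2. At day 3 REST cKO was lower than WT by a fitted -1.22 (standard error 0.32), and by -0.80 in the means.

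The change from sham to day 3 was smaller in REST cKO than in WT, and the difference of the 2 changes (REST cKO less WT) was -2.0 in the fit (standard error 0.53) and -1.01 in the group means. It contains the comparison that picked the gene, so it carries no test. At day 3 the difference of REST cKO from WT was -1.87 in batch 1, -0.86 in batch 2 and 0.35 in batch 3, so the direction was not shared by the 3 batches. Without the shallow library WT day 3 replicate 5 the fitted difference at day 3 was -0.95 and that of the 2 changes -1.80.

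**Figure D3:**
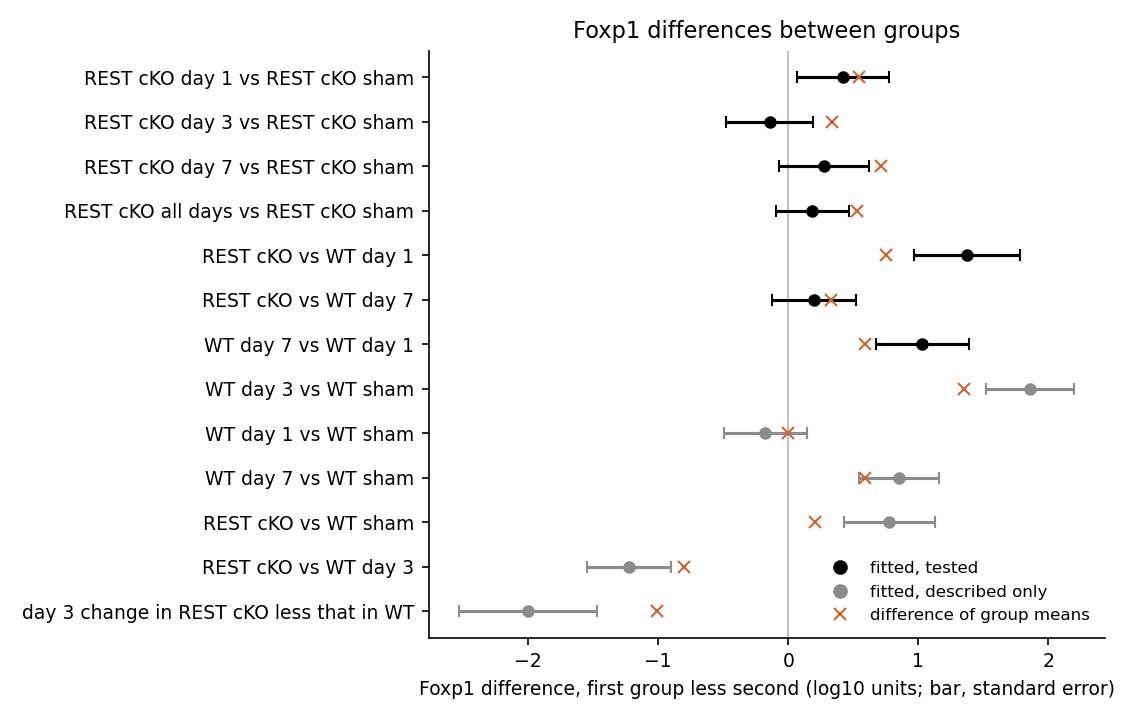
*Foxp1* differences between groups (horizontal axis, log10 units, first group less second) for 13 comparisons (vertical axis). Circles are fitted differences with their standard error, black where tested and grey where described only, and crosses are differences of group means. The fitted value is 1.86 for WT day 3 against sham and -0.14 for REST cKO day 3 against sham, where the cross is at 0.34.

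Marker sums moved between the same groups. The pan-neuronal sum was 2.64 ± 0.61 (SD) in WT sham, and 3.48 ± 0.20, 3.4 ± 0.21 and 2.76 ± 0.52 in WT of days 1, 3 and 7. The 4 WT sham libraries (1.75, 2.75, 3.01 and 3.05) were all below the 3 of WT day 3 (3.62, 3.39 and 3.19), as *Foxp1* was. WT day 1 had a pan-neuronal sum as high as day 3, with *Foxp1* at the level of sham. The REST cKO sham libraries had 3.58 ± 0.20, and the injured ones 3.26 ± 0.44 for day 1, 3.29 ± 0.12 for day 3 and 3.64 ± 0.38 for day 7. The excitatory neuron sum was 2.42 ± 0.34 in WT sham and 3.00 ± 0.40 in WT day 3, and the endothelial sum was 3.21 ± 0.22 and 3.70 ± 0.56. The astrocyte sum was 2.47 ± 0.35 in WT sham and 3.33 ± 0.20 in WT day 3, and its 4 sham libraries (2.04, 2.62, 2.35 and 2.86) were all below the 3 of day 3 (3.32, 3.54 and 3.14). At day 7 the lymphocyte sum was 4.98 ± 0.10 in WT and 4.19 ± 0.19 in REST cKO, and the 3 WT libraries (4.90, 4.94 and 5.09) were all above those of REST cKO (4.03, 4.40 and 4.14). The pan-neuronal sums of WT day 7 (2.84, 3.24 and 2.20) were all below those of REST cKO day 7 (4.02, 3.64 and 3.27). So were the striatal projection neuron sums (0.31, 1.03 and -0.63 against 1.44, 2.76 and 2.14). The inhibitory neuron sums were separated too (1.33, 0.87 and 0.52 against 2.84, 3.31 and 1.42). The layer 5 sum was 1.54 ± 0.93 in WT and 3.03 ± 0.85 in REST cKO, with overlap. The share of all genes separated between genotypes at day 7 was not computed, so these separations have no baseline. Over all genes the median fitted difference there was 0.23. At an unadjusted p under 0.05 in limma, 7.73% were higher and 2.22% lower in REST cKO. The part of the shifts in marker sums in the *Foxp1* values was not tested.

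Within groups, that is over the 25 libraries after each gene's group means were subtracted, the *Foxp1* level moved with the pan-neuronal sum (r = 0.44, rho = 0.51) and with the excitatory neuron sum (r = 0.41, rho = 0.39). With the sum of microglia and macrophages it did not (r = -0.10, rho = -0.03), nor with that of lymphocytes (r = 0.01, rho = -0.17). The other sums gave r = 0.35 for striatal projection neurons, 0.32 for endothelium, 0.24 for oligodendrocyte precursors, 0.21 for astrocytes, 0.19 for corticospinal layer 5 neurons, 0.04 for mural cells, -0.21 for oligodendrocytes and -0.34 for inhibitory neurons. Their counts of measured markers were 4 of 10, 10 of 10, 2 of 5, 7 of 10, 5 of 9, 6 of 6, 9 of 10 and 5 of 10. The most abundant of the first 7 were *Pde10a*, *Flt1*, *Cspg4*, *Slc1a3*, *Bcl11b*, *Rgs5* and *Mbp*. Libraries of 1 group share genotype and day, and these values are descriptions over 25 libraries. With the share of a library's genes under -2, r was 0.19 and rho 0.008.

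The genes whose levels followed *Foxp1* most closely within groups were then listed, 10 in each direction out of 9930. The middle 90% of genes had r between -0.44 and 0.40, 37 genes were above 0.6 and 61 below -0.6. The closest was *Esrp2*, a splicing regulator known from epithelia (r = 0.83, rho = 0.85). It was followed by *Thsd7a*, a membrane protein with thrombospondin repeats (r = 0.74, rho = 0.67), and *Gpc6*, a glypican of the cell surface (r = 0.73, rho = 0.70). Without the 2 libraries farthest from the median of *Foxp1*, WT sham replicate 17 and REST cKO day 3 replicate 27, r was 0.80, 0.72 and 0.67 for these 3 genes. With batch removed as well as group means it was 0.83, 0.76 and 0.74.

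*Esrp2* was at -3.42, -2.91, -1.55 and 0.34 in the WT sham libraries, in the order of *Foxp1* values of 1.76, 1.72, 1.45 and 2.61. In WT day 3 it was 3.02, 1.91 and -1.08, beside *Foxp1* values of 3.70, 3.27 and 2.74. In REST cKO day 1 it was 2.46 and -1.10, beside 3.23 and 2.04. The library with the highest *Foxp1* had the highest *Esrp2* in these 3 groups. The same held in WT day 7 (2.07), REST cKO sham (0.62) and REST cKO day 3 (-0.34). It did not hold in WT day 1 (*Esrp2* at -0.74, -0.21 and -0.70) or REST cKO day 7 (-0.47, -1.07 and 1.78). The mean of *Esrp2* was -0.34, far under that of *Foxp1*, and its lowest values are near the floor of the scale. *Thsd7a* had a lower mean still (-1.36) and was between -3.35 and -3.04 in 5 libraries, so its r rests in part on values near the floor. Among the other 18 of these 20 genes, *Exoc3l4* (-1.10) and *Aptx* (-0.83) had the lowest means.

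Next in the list were *Smarca2*, an ATPase of the SWI/SNF chromatin remodelling complex (r = 0.72), *Plxna1*, a receptor for semaphorins that guide axons (r = 0.70), and *Slc17a7*, the vesicular glutamate transporter of cortical excitatory neurons (r = 0.70, rho = 0.75). *Nsmf*, which carries signals from synapse to nucleus, had r = 0.70, and *Dnajc9*, a chaperone partner that handles histones, had r = 0.68. *Tspan7*, a tetraspanin of the neuronal membrane, and *Ppp3cb*, a catalytic subunit of calcineurin, both had r = 0.66. The 11th gene, *Immp2l*, was just outside at r = 0.66. *Slc17a7* was at 0.71 without the 2 farthest libraries, at 0.72 with batch removed and at 0.59 with the 2 components removed, which also lowered *Smarca2* to 0.60 and *Plxna1* to 0.54. Its mean level was 1.95. The other 6 gave r between 0.56 and 0.75 without the 2 libraries.

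Of the genes that moved most against *Foxp1*, *Sash1*, a scaffold protein of signalling pathways, came first (r = -0.77, rho = -0.72), with *Ttc38* next (r = -0.77, rho = -0.62). *Ly86*, which pairs with a Toll-like receptor relative on immune cells, had r = -0.74, and *Cd300a*, an inhibitory receptor of myeloid cells, r = -0.71. *Gigyf1*, a translational repressor (r = -0.74), *Wipf3*, of the family that binds WASP (r = -0.73), *Aptx*, a DNA strand break repair enzyme (r = -0.73), and *Pex14*, of the peroxisomal import machinery (r = -0.73), followed. *Ube2r2*, a ubiquitin-conjugating enzyme (r = -0.71), and *Exoc3l4* (r = -0.70) completed the 10. The 11th gene, *Nans*, had r = -0.70. Without the 2 farthest libraries the 10 values lay between -0.77 and -0.62, and with batch removed between -0.77 and -0.69. *Sash1* was at -1.93, 1.45 and 3.76 in WT day 3, the reverse of the order of *Foxp1* there. The -1.93 came from the shallow replicate 5. There 1 read was worth 0.403 in log10, read from values with the component terms undone. That was not done for *Sash1*, so its count of reads there is not known, but the value is low. *Ttc38* (-2.31) and *Ly86* (-2.37) were also low in that library.

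**Figure D4:**
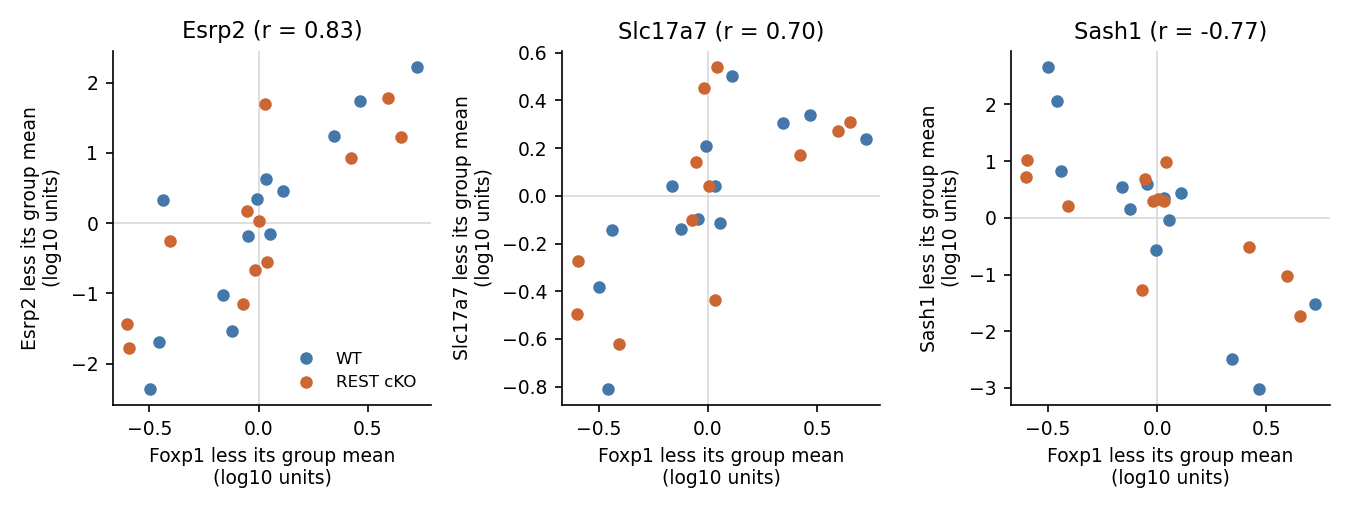
Levels of *Esrp2*, *Slc17a7* and *Sash1* less their group means (vertical axes, log10 units) against that of *Foxp1* (horizontal axes, log10 units) in the 25 libraries, coloured by genotype. *Esrp2* (r = 0.83) and *Slc17a7* (r = 0.70) rise with *Foxp1*, and *Sash1* (r = -0.77) declines.

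Which genes made up the list varied with the libraries. With only the 13 WT libraries 4 of the 20 genes were among the top 10 of either direction, and with only the 12 REST cKO libraries 1 was. Within each genotype *Esrp2* had r = 0.86 in WT and 0.81 in REST cKO, *Slc17a7* 0.75 and 0.66, and *Sash1* -0.87 and -0.72, over libraries that also served to pick these genes. Others differed more, as *Smarca2* (0.52 in WT and 0.91 in REST cKO), *Tspan7* (0.83 and 0.49) and *Ube2r2* (-0.92 and -0.50). None of the 20 genes was called in any of the 7 tested comparisons (limma adjusted p of at least 0.268). At an unadjusted p under 0.05, 3 of the 10 opposite genes were higher and 0 lower over all days of REST cKO against sham, where 4.44% of all genes were higher and 1.11% lower. Of the 10 alike genes 0 were higher and 1 lower there, *Slc17a7*, with a fitted difference of -0.73.

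The median fitted difference over all days against REST cKO sham was -0.68 in the 10 alike genes and 1.12 in the 10 opposite genes, where *Foxp1* had 0.19 and the median of all genes was 0.10. Between genotypes at day 1 the medians were 1.21 and -2.27, with 0.19 over all genes and 1.38 for *Foxp1*. *Esrp2* had a fitted value of 2.96 in that comparison, with group means of 0.68 in REST cKO and -0.55 in WT. For *Slc17a7* it was 0.55, with means of 2.02 and 1.89. There 2 of 10 alike genes were higher at an unadjusted p under 0.05, *Smarca2* and *Plxna1*, and 2 of 10 opposite genes were lower, beside 2.81% and 0.997% of all genes. At day 7 against WT, 1 opposite gene was higher, *Exoc3l4*, where 7.73% of genes were higher and 2.22% lower. In WT day 7 against day 1, *Plxna1* was higher and *Aptx* and *Pex14* were lower, where 2.25% of genes were higher and 6.15% lower.

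Of the FOXP family, *Foxp2*, which in the cortex marks deep layer neurons, was the other member measured, and *Foxp3* and *Foxp4* were not analysed here. *Foxp2* had a mean of 0.79 and r = 0.17 with *Foxp1*. Its fitted difference was not called in any of the 7 comparisons. Of 40 other forkhead genes 15 were measured, 8 of them with r above 0 and a median r of 0.03. Among those with r above 0 were *Foxn3* (0.37) and *Foxc1*, known from pericytes and meninges (0.31). With the 2 components removed as well as group means, r was 0.51 for *Foxn3* and -0.21 for *Foxc1*. With 1 library left out they fell as low as 0.23 and 0.19. The lowest were *Foxj1*, the regulator of motile cilia (-0.27), and *Foxj2* (-0.24). None was called. Their median fitted difference was -0.46 over all days against REST cKO sham (0.10 over all genes), with 1 lower and 0 higher at an unadjusted p under 0.05, beside 1.11% and 4.44% of all genes. Against WT at day 7, 2 of 15 were higher and 0 lower, beside 7.73% and 2.22%, and in WT day 7 against day 1, 1 was higher and 0 lower, beside 2.25% and 6.15%.

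Partners of FOXP repression were read as a list of corepressors and NuRD subunits, 18 of 19 of which were measured. Their median r with *Foxp1* was -0.07, and 7 of 18 were above 0. *Mta1*, *Rbbp7* and *Mta3*, all NuRD subunits, had r of 0.36, 0.33 and 0.33. With 1 library left out these 3 fell as low as 0.21, 0.23 and 0.18. *Mta2*, another NuRD subunit, and the nuclear receptor corepressor *Ncor1* were lowest at -0.42 and -0.34. None was called in the 7 comparisons. Against WT at day 7, 4 of 18 were higher and 0 lower at an unadjusted p under 0.05, beside 7.73% and 2.22% of all genes, with a median fitted difference of 0.76 beside 0.23 over all genes. In WT day 7 against day 1, 2 of 18 were lower and 0 higher, beside 6.15% and 2.25% of all genes, and the median was -0.67, beside -0.23 over all genes.

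Transcription factors of cortical projection neurons had a median r of -0.08 over 30 of 36 measured, and 13 were above 0. The upper layer factor *Pou3f2* (r = 0.50), *Neurod6* (0.32) and the layer 5 gene *Etv1* (0.29) were highest. With 1 library left out these 3 fell as low as 0.41, 0.06 and 0.15. Without the 2 farthest libraries they were 0.55, 0.09 and 0.09. *Rorb*, a factor of layer 4 neurons, had r = -0.51 and *Pou3f3* had -0.42. None was called, and in WT day 7 against day 1, 6 of 30 were lower and 0 higher at an unadjusted p under 0.05, beside 6.15% and 2.25% of all genes, with a median of -0.58 where that of all genes was -0.23. Neuron markers were lower there too. The excitatory neuron sum was 3.06, 2.99 and 2.92 in WT day 1 and 2.79, 2.00 and 2.23 in WT day 7. The pan-neuronal sum was 3.41, 3.71 and 3.32, then 2.84, 3.24 and 2.20. The part of this in the factors was not tested. Against WT at day 7, 3 of 30 were higher and 0 lower, beside 7.73% and 2.22%, and at day 1, 1 was higher and 0 lower, beside 2.81% and 0.997%. Over all days against REST cKO sham 1 was lower and 0 higher, beside 1.11% and 4.44%, and the median was -0.10.

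Genes of striatal projection neurons, the other forebrain cells known for *Foxp1*, were measured for 11 of 18 on the list, with a median r of 0.13 and 8 above 0. The phosphodiesterase *Pde10a* (0.36), *Rasd2* (0.32) and the transcription factor *Six3* (0.29) were highest, and *Pde1b* (-0.40) and *Bcl11b* (-0.21) lowest. With 1 library left out they came as near to 0 as 0.18, 0.16, 0.03, -0.30 and -0.05, in that order. None was called. The median fitted difference was -0.04 over all days against REST cKO sham, 0.24 against WT at day 1 and 0.69 against WT at day 7, where the medians of all genes were 0.10, 0.19 and 0.23. At an unadjusted p under 0.05, 1 of 11 was higher against WT at day 1 (2.81% of all genes), 2 were higher at day 7 (7.73%) and 1 was lower in WT day 7 against day 1 (6.15%).

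Taken gene by gene, 7 of 8 excitatory neuron markers had r above 0 with *Foxp1* (median 0.20, *Slc17a7* the highest), as did 7 of 10 pan-neuronal markers (median 0.12) and 8 of 10 endothelial markers (median 0.27). Of the 12 markers of microglia and macrophages 6 were above 0, and all lay between -0.14 and 0.10. Inhibitory neuron markers differed from their sum, since 4 of 5 were above 0 while the sum had r = -0.34. No marker gene was called in any of the 7 comparisons.

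The measured neighbours of *Foxp1* on chromosome 6 did not follow it. *Eif4e3*, at 102 kb on the side of its start, had r = -0.11, the receptor gene *Gpr27* at 170 kb had -0.24 and the pseudogene *Tpt1-ps3* at 355 kb had -0.16. On the other side, *Frmd4b* at 1308 kb had r = -0.42, *Arl6ip5* at 1692 kb had 0.20 and *Uba3* at 1720 kb had 0.07. None of the 6 was within 100 kb.

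Reads at 3′ ends do not tell which start of *Foxp1* was used, so its promoters were read, and those with a match are shown. The RefSeq table (GRCm38.p6) holds 3 for *Foxp1*, windows of 300 bases around a start, all on the minus strand. They were searched on both strands for TGTTTAC and TGTTTAT, core letters of forkhead sites, which are in 3.65% and 4.60% of 32851 promoters of this length and 1 or the other in 7.97%. Those at chr6:99520944-99521243 (60.3% GC) and chr6:99266466-99266765 (48.7% GC) each hold TGTTTAT once, the former as its reverse complement, in capitals below, starting at base 159 and base 174. The 1 at chr6:99028249-99028548 (75.3% GC) holds neither.
outer promoter: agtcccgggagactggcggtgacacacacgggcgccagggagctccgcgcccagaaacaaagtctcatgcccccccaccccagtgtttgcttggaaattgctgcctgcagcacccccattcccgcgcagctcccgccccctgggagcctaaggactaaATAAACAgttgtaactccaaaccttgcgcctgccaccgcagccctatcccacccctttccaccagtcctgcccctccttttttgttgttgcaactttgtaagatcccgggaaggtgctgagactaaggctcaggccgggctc
middle promoter: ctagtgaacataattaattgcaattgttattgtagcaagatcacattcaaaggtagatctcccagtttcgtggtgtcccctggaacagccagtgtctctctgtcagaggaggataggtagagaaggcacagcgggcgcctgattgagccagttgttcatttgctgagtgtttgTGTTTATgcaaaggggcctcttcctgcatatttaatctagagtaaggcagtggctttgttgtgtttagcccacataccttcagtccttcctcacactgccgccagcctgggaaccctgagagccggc

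Letters of the REST site were searched in the same way. TTCAGCACC, from its left part, is in 0.371% of promoters and GGACAG, from its right part, in 22.2%, and neither is in the 3 *Foxp1* promoters. Of the genes most alike 6 of 10 matched the promoter table, with 6 promoters, and of those most opposite 10 of 10, with 12 promoters. A forkhead core was in 0 of these 18, and TTCAGCACC in 0. These are matches of letters in windows of 300 bases and no more.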

How the data were processed

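The deposited table holds 9955 rows and 25 libraries. Its values are log10 of normalized counts with a pseudocount of 0.001, made by the authors. The floor was -3 with the component terms undone, and deposited values can lie below it. The paper's methods name RUV for batch effects, and a linear model that took sequencing and alignment covariates out before network analysis. The values of 9791 genes here were uncorrelated with the 2 components of sequencing metrics, and those of 140 were not. The design file took the unit as log2. The base is 10, since steps from 1 to 2 reads in batch 1 were 0.300 to 0.301, read from 1354 genes whose low values could be restored. Relative depth was recovered for batch 1 alone, and differences within batches 2 and 3 are of adjusted values. Upstream, by the submitters' processing notes, STAR, Salmon, DESeq2 and limma were used on mm10. The authors' comparison columns (log fold changes, p and adjusted p) were not used. The 24 rows without a symbol were left out, which left 9931 genes.

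Here limma 3.58.1 in R 4.3.3 fitted 8 group means and the 2 components, letting the prior variance follow the mean, and an adjusted p (Benjamini-Hochberg) under 0.1 was a call. Python 3.11.15 with numpy 2.4.6, pandas 2.3.3, scipy 1.17.1 and matplotlib 3.10.9 did the rest. Correlations used values less group means. *Foxp1*, the gene lists and the 12 marker lists were chosen with earlier results of these data known. Genes were named by rule: *Foxp1*, *Rest*, the 10 highest and 10 lowest correlations, measured FOXP genes, the 3 highest and 2 lowest of each other gene list, the most abundant of each marker list, any called listed gene, and 3 measured neighbours on each side. Some genes that this rule would name are not reported here. The lists were FOXP family, other forkhead genes, FOXP corepressors and NuRD subunits, cortical projection neuron transcription factors, striatal projection neuron genes, and markers of the 12 cell types in the text.

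Alternatives left out the components, added batch, sex, the share of low values, weights or quantile normalization, dropped the variance trend, took a threshold of 0.05, kept genes with a mean of at least 0, kept only the groups compared, 1 genotype for correlations, or left out each library in turn. A fit of the 10 libraries of batch 1 was added after the data were seen.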

Additional observations from a re-analysis of the deposited data

Results flagged for a closer look

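Within the 4 libraries of REST cKO day 3, 4 values lay far from the other 3. *Rest* was -1.61 in replicate 27, with the others from -0.31 to -0.04, and *Sash1* was -0.81 in the same library, with the others from 1.26 to 1.64. In replicate 9, *Aptx* was 3.22 (others -1.51 to -1.35) and *Exoc3l4* was 1.89 (others -1.34 to -1.18). By chance alone about 1 in 20 such groups would be flagged, and 44 were examined. The *Foxp1* difference of means between REST cKO and WT had the values 0.75, -0.80 and 0.33 for days 1, 3 and 7. It was thus 1.55 higher at day 1 than at day 3, and the step from day 7 to day 3 was -1.13. These day differences were not tested, and day 3 holds libraries on which *Foxp1* was selected.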

How the results depend on the processing

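Without the components, whether all groups or only those compared were kept, *Foxp1* in REST cKO day 3 less sham changed sign to 0.34. In both, WT day 3 less sham fell to 1.35, REST cKO less WT in sham to 0.21, and the difference of the day 3 changes to -1.01. In batch 1 alone, a choice made after seeing the data, REST cKO less WT at day 3 was -1.87 and the difference of changes -2.64. Leaving out 1 library, REST cKO less sham ran from -0.0317 (without day 1 replicate 19, which leaves 1 library there) to 0.89 at day 1, from -0.318 to 0.0491 at day 3 and from -0.0067 (without day 7 replicate 13) to 0.39 at day 7, and over all days from 0.06 to 0.38. Also with 1 library left out, REST cKO less WT lay between 0.86 and 1.78 for day 1 and between -0.0362 and 0.30 for day 7, WT day 7 less day 1 from 0.83 to 1.28, and WT day 3 less sham from 1.60 to 2.05. In the same way WT day 1 less sham lay between -0.41 and 0.01, WT day 7 less sham between 0.75 and 0.98, REST cKO less WT between 0.66 and 0.87 in sham and between -1.42 and -0.95 for day 3, and the difference of changes between -2.17 and -1.80. Over the alternative settings, with all libraries or batch 1 alone, REST cKO less sham lay between 0.12 and 0.54 for day 1, -0.68 and 0.34 for day 3, 0.17 and 0.71 for day 7 and 0.01 and 0.53 for all days. There REST cKO less WT had 0.75 to 1.49 for day 1, 0.14 to 0.40 for day 7, 0.21 to 0.91 in sham and -1.87 to -0.80 for day 3, and the difference of changes -2.64 to -1.01. WT day 7 less day 1 had 0.59 to 1.14, and less WT sham, day 1 had -0.24 to 0.12, day 3 had 1.35 to 1.96 and day 7 had 0.59 to 0.96. The exact p of the pooled comparison ran from 0.0848 to 0.473. *Foxp1* was called in 0 of 249 alternative fits of the 7 tested comparisons (limma adjusted p of at least 0.331). Of the 20 genes most like or unlike it, 12 stayed with rho, 7 with the components removed, 13 among genes with a mean of at least 0, 4 in WT, 1 in REST cKO, and 7 to 19 without 1 library. Calls over all days against REST cKO sham went from 1 to 5 without components, 15 with weights, 16 among genes with a mean of at least 0, 0 without the trend and 2 with quantile normalization. At day 3 they went from 2 to 0 without components or trend to 1 with batch or the mean filter and to 3 with weights, at day 1 from 0 to 1 without components, and at day 7 from 0 to 6 with weights. REST cKO against WT at day 7 went from 0 to 1 without components, 2 with batch and 5 with the mean filter, and WT day 3 against sham from 1 to 0 in 5 settings. Without 1 library the counts reached 3, 12, 7 and 11 at day 1, 3, 7 and all days against REST cKO sham, 21 against WT at day 7, 10 in WT day 7 against day 1 and 5 in WT day 3 against sham.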
